A study of Mus musculus with 23 samples.

Results

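Liver RNA of mice fed a high-fat diet (HFD) was compared with that of mice fed regular chow, both under a control antibody. The comparison took 11 of the 23 libraries of the experiment, all from male C57BL/6J mice kept on their diet for 4 months. Both groups received the antibody REGN496 at 10 mg/kg for 3 weeks, 5 libraries on chow (1 to 5) and 6 on HFD (12 to 17), numbered as in the sample titles. REGN496 was taken as the isotype control by elimination, since the series design names REGN1193 as the antibody that blocks GCGR, the receptor for glucagon. The other 12 libraries, from mice given REGN1193 (6 on chow, 6 on HFD), shared no library with this comparison and gave a second diet comparison in the same fit. All mice, controls included, had thus received an injected antibody, and the sources used here do not give the composition of the diets or the time of sampling. Whether each library came from its own mouse is not stated, so p-values here measure only spread between samples, which may be technical. Genes were taken by rule: those at 0.5 RPKM or more (reads scaled by gene length and library size) in at least 5 of the 23 libraries, which were 11939 of the 24475 genes in the table.

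The liver stores and burns fat. Fatty acids that reach hepatocytes are esterified to triglyceride and packed into lipid droplets or lipoproteins, or are oxidised in mitochondria and peroxisomes. The receptor PPARA drives the genes of oxidation and ketone body synthesis when fatty acids are abundant, SREBP-1c (encoded by Srebf1) drives those of fatty acid synthesis under insulin, and PPARG drives lipid droplet genes in fatty liver. Mouse liver also differs between the sexes: pulses of growth hormone keep male-typical genes high, among them major urinary proteins (Mup), and female-typical genes low. Hepatocytes further make the cytochromes P450 and conjugating enzymes that clear steroids, bile acids and drugs.

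Closely related genes moved apart between the diets, and the upstream sequences of 2 such pairs are shown so that their letters can be compared. Cyp2b9 and Cyp2b10 encode cytochromes P450 of the CYP2B subfamily and lie in the same gene cluster, Cyp2b10 at chromosome 7, 25897658 to 25926624 and Cyp2b9 at chromosome 7, 26173350 to 26210661 of GRCm38. Cyp2b9 rose on HFD and Cyp2b10 fell. Selenbp2 (chromosome 3, 94693573 to 94704406) and Selenbp1 (chromosome 3, 94933083 to 94944758) encode selenium-binding proteins, and of this pair Selenbp2 fell while Selenbp1 had a log2 fold change of 0.00. The windows are RefSeq promoter sequence of GRCm38.p6, up to 250 bases before the annotated start, each printed 5′ to 3′, and capitals mark bases with no identical partner in a global alignment with the other member of the pair.
Cyp2b9 (chr7:26173159-26173349, plus strand): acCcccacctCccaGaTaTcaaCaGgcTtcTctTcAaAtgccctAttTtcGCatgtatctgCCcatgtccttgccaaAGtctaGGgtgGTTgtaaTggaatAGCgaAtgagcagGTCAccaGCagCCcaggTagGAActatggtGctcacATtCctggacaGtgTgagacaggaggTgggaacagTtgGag
Cyp2b10 (chr7:25897408-25897657, plus strand): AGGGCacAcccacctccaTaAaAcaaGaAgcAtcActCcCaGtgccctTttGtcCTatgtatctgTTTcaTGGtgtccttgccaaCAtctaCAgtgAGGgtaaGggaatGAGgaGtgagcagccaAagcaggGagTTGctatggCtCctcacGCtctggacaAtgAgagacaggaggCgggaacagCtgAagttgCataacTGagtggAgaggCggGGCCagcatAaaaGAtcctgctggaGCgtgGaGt
Selenbp2 (chr3:94693323-94693572, plus strand): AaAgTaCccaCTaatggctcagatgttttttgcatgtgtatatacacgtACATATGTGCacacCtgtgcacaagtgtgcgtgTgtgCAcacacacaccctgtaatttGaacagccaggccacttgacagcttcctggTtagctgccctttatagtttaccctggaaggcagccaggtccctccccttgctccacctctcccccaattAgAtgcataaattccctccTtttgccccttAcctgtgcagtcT
Selenbp1 (chr3:94932833-94933082, plus strand): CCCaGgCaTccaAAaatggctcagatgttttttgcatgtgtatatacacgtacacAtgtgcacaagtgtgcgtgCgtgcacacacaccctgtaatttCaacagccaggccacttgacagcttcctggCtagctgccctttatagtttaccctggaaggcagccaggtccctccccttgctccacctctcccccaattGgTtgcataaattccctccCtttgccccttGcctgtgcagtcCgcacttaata

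The printed windows matched their partner at 140 of 191 bases for Cyp2b9 (73.3%) and at 223 of 250 for Selenbp2 (89.2%). Most of the differing bases of Selenbp2 lay toward the 5′ end, and those of Cyp2b9 were spread along its length. Across the members, 4 motifs were searched as exact letters on both strands of the 300-base RefSeq windows (250 bases before to 50 after a start), none of which contains another. The sterol element SRE-1 (TCACNCCAC, N being any base) and the PPAR direct repeat DR1 (AGGTCANAGGTCA) were found in 0 of the 32 windows available for the 44 genes with the largest changes or the smallest adjusted p of their list, against 1.51% and 0.0423% of the 9447 tested genes with one. Of the 17 windows of the cholesterol synthesis list, 1 held SRE-1 (5.88%) and 0 held DR1, and SRE-1 was in 1.52% of the windows of higher genes and 2.19% of those of lower genes. The NF-Y box CCAAT was in 16 of 17 cholesterol synthesis windows (94.1%) and in 43.2% of tested genes. The E-box CACGTG was in 4 of the same 17 (23.5%) and in 11.9% of tested genes. A match, or its lack, says only which letters lie in these windows.

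Summed RPKM of the 11 libraries ranged from 594026 to 662738, 15365 to 15808 genes lay above 0, and the steps of low values gave relative depths of 0.861 to 1.14. Absolute read numbers are not in the table, so no counting intervals were computed. On the first principal component of the 11 libraries (51.5% of the variance) the chow libraries lay between -22.6 and -19.8 and 5 HFD libraries between 15.7 and 28.4. HFD library 13 stood apart at 1.44, between the groups. Over the genes that were higher on HFD under the GCGR antibody, library 13 exceeded the chow mean by a median log2 of 0.12, the other 5 HFD libraries by 0.27 to 0.33. It also had the lowest mean correlation with its group (0.9857). Results are therefore given with it, and counts are repeated without it.

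Transcript levels differed widely between the diets. Of 11939 genes tested, 1390 were higher (11.6%) and 2183 lower (18.3%) on HFD at an adjusted p under 0.05, 3573 in all (29.9%). Changes were mostly small: 104 of the higher and 123 of the lower genes changed by 2-fold or more, and the median log2 fold change of all tested genes was -0.03. The HFD and chow libraries did not overlap in 1900 genes (15.9%), HFD lying above in 656 and below in 1244. The excess of lower genes depended on the scaling: 61.1% of called genes were lower as deposited and 50.2% after median-ratio scaling of the libraries (1805 higher, 1818 lower). Without library 13 there were 1672 higher and 2316 lower genes. Fold changes are HFD minus chow on the log2(RPKM + 1) scale, ± SE (this understates the change of a gene with few reads), and adjusted p values are from limma over all tested genes.

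**Figure D1:**
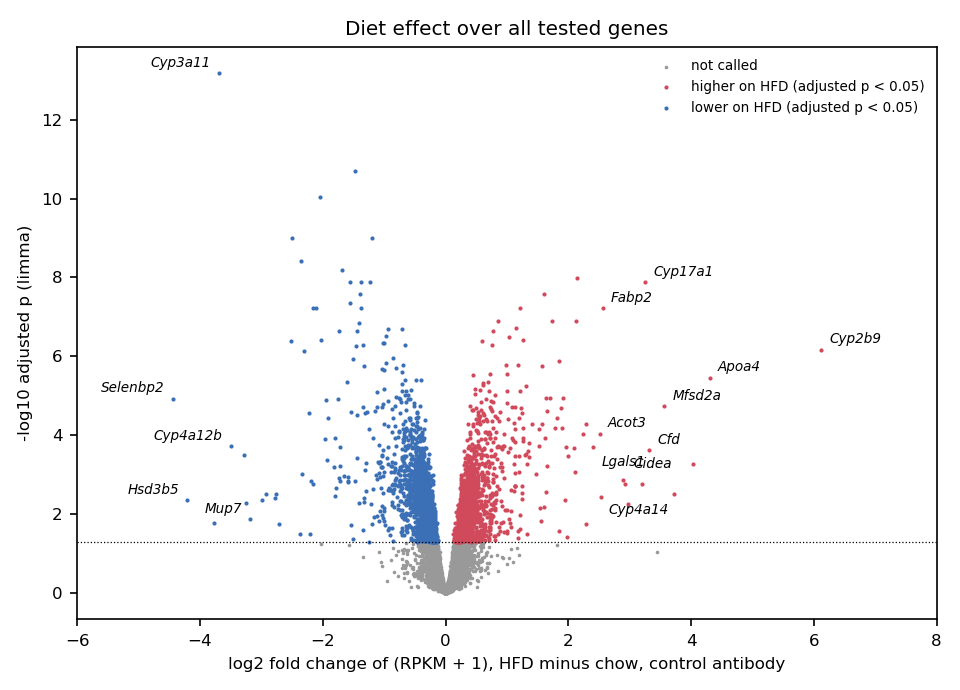
Each point is 1 of the 11939 tested genes; the x axis is the log2 fold change of RPKM + 1 (HFD minus chow, control antibody), the y axis is -log10 of limma's adjusted p, and the dotted line marks 0.05. The 1390 higher genes are red and the 2183 lower genes blue; Cyp2b9 lies farthest to the right at 6.11 and Selenbp2 farthest to the left among labelled genes at -4.44.

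Among called genes whose diets did not overlap, the 10 largest increases were those of Cyp2b9, Apoa4, Mfsd2a, Cfd, Cyp17a1, Cidea, Fabp2, Cyp4a14, Acot3 and Lgals1. Cyp2b9 was nearly silent on chow, at 0.215, 0, 0.0411, 0.104 and 0.401 RPKM in libraries 1 to 5, and reached 37 to 135 (median 75.4) RPKM on HFD (log2 fold change 6.11 ± 0.64 (SE), adjusted p = 6.77e-07). No library came near overlapping, and library 13 was the lowest of the HFD libraries. Apoa4, an apolipoprotein of triglyceride-rich particles (chromosome 9, 46240844 to 46243458), was at 30.9, 37.4, 40.1, 40.4 and 41.2 RPKM on chow, against 253 to 2764 (median 804) on HFD (4.30 ± 0.51, adjusted p = 3.47e-06). The chow libraries were tight and the HFD libraries spread over an order of magnitude, all above chow. Mfsd2a, a transporter of lysophosphatidylcholine (chromosome 4, 122946850 to 122961194), went from 0.905, 3.47, 2.63, 2.96 and 7.69 RPKM to 31.3 to 59 (median 48.1) (3.56 ± 0.48, adjusted p = 1.82e-05). Cyp17a1, the steroid 17-alpha-hydroxylase (chromosome 19, 46667165 to 46673000), went from 0.969, 1.13, 2.53, 1.02 and 1.83 RPKM to 10.8 to 41.5 (median 23.6) (3.25 ± 0.26, adjusted p = 1.32e-08). Both separated the diets completely.

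Cfd, complement factor D or adipsin (chromosome 10, 79890853 to 79892655), was at 0.702, 1.97, 0.929, 2.36 and 1.17 RPKM on chow, against 4.4 to 74.5 (median 25.7) on HFD (3.31 ± 0.57, adjusted p = 0.000236), library 13 holding the lowest HFD value. Cidea, a lipid droplet protein that fuses droplets (chromosome 18, 67343564 to 67367794), was at 0.325, 0.751, 0.0615, 0.416 and 0.31 RPKM on chow, against 21.1, 1.3, 24.7, 18.2, 1.22 and 19.9 on HFD (2.92 ± 0.63, adjusted p = 0.00174). Its HFD values, given in the order of libraries 12 to 17, held a low pair, 13 and 16, which lay just above the highest chow library, and 4 libraries well above it. Fabp2, a fatty acid-binding protein best known from intestine (chromosome 3, 122895072 to 122899506), went up from 36.5 ± 12.5 to 213 ± 37.3 RPKM (SD, n = 5 and 6; 2.56 ± 0.23, adjusted p = 5.99e-08). Cyp4a14, a fatty acid omega-hydroxylase and PPARA target (chromosome 4, 115486200 to 115496158), was at 175, 53, 85, 69 and 6.88 RPKM on chow, against 212 to 377 (median 325) on HFD (2.53 ± 0.61, adjusted p = 0.00374). Acot3, a peroxisomal acyl-CoA thioesterase (chromosome 12, 84052144 to 84060400), went up from 1.23 to 11.7 RPKM (2.51 ± 0.39, adjusted p = 9.09e-05), and Lgals1, galectin-1 (chromosome 15, 78926725 to 78930465), from 21.5 to 120.4 RPKM (2.41 ± 0.41, adjusted p = 0.000204). None of the 10 genes with the largest increases lost its call under any of the 20 alternatives run. They were picked as called genes without overlap, which set their rank-sum result in advance, so keeping the call is no separate support.

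The largest decrease was that of Selenbp2. It was at 345, 709, 499, 501 and 549 RPKM on chow, against 11.5 to 37.5 (median 26.7) on HFD (-4.44 ± 0.58, adjusted p = 1.18e-05), while Selenbp1 of the same chromosome went from 168 ± 17.5 to 168 ± 17.7 RPKM (SD, n = 5 and 6; adjusted p = 0.998). Hsd3b5, a 3-ketosteroid reductase of male mouse liver (chromosome 3, 98618636 to 98645534), was at 149, 165, 93.3, 121 and 86.3 RPKM on chow, against 0.179 to 60.9 (median 4.53) on HFD (-4.21 ± 1.03, adjusted p = 0.00443). Library 13 held the highest HFD value, still under every chow library. Cyp3a11, the most abundant CYP3A enzyme of mouse liver (chromosome 5, 145854607 to 145879854), was at 2989, 3189, 3218, 4577 and 4556 RPKM on chow, against 231 to 333 (median 288) on HFD. Its log2 fold change was -3.69 ± 0.15, with an adjusted p of 6.58e-14, the smallest in the comparison. Here library 13 lay inside the HFD range. Cyp4a12b, an omega-hydroxylase of male liver (chromosome 4, 115411624 to 115439034), dropped from 48.2 to 4.12 RPKM (-3.50 ± 0.58, adjusted p = 0.000187). The other 6 of the 10 largest decreases were major urinary proteins, carriers of volatile pheromones: Mup14, Mup16, Mup8, Mup7, Mup11 and Mup17, with log2 fold changes of -3.78 to -2.93.

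**Figure D2:**
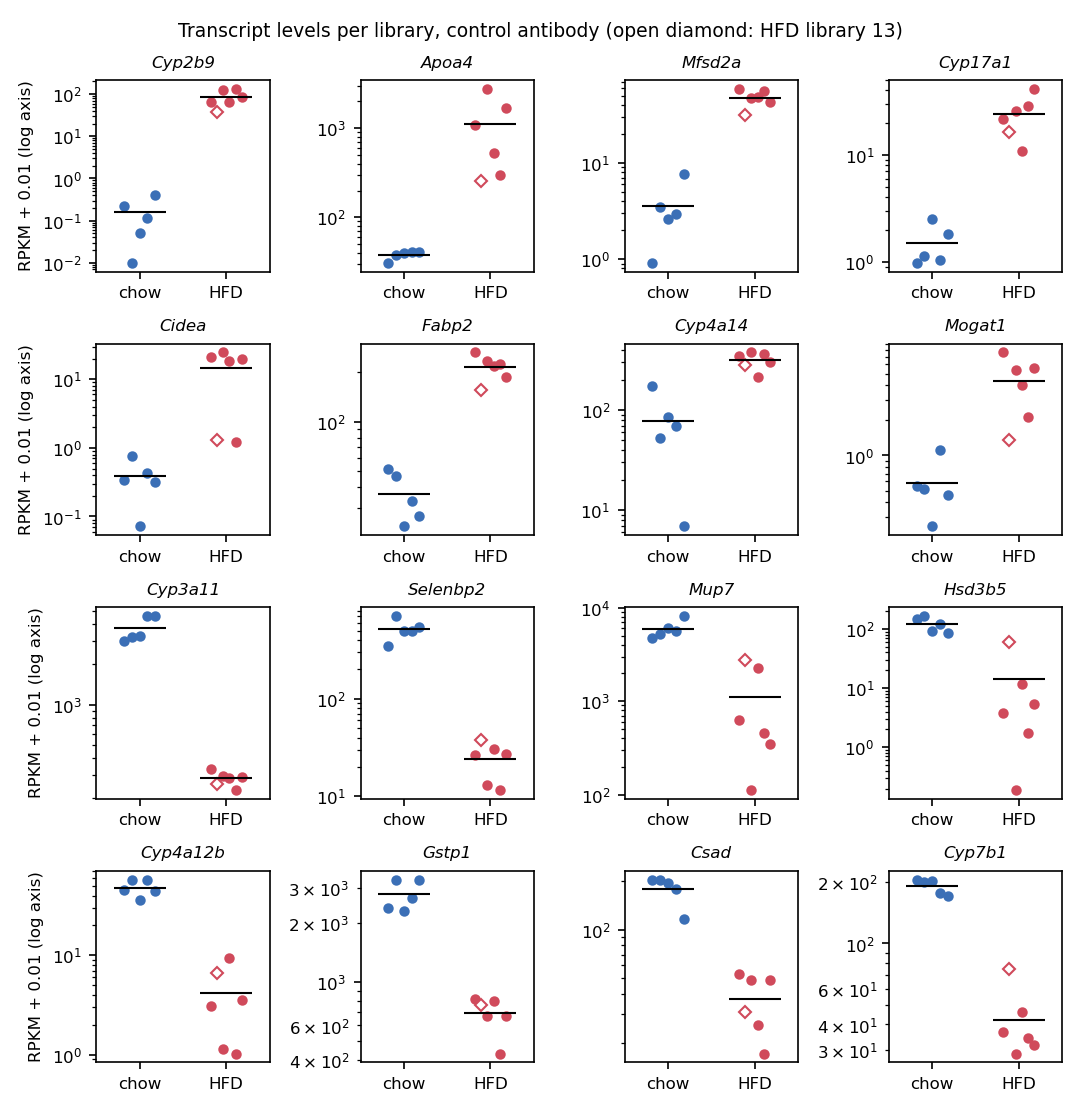
Each panel plots 1 gene, with RPKM + 0.01 on a log axis for the 5 chow libraries (blue) and the 6 HFD libraries (red), the mean as a bar and HFD library 13 as an open diamond. In all 16 panels the HFD libraries lie on 1 side of the chow libraries; library 13 is the HFD library closest to chow for Cyp2b9, Apoa4, Mfsd2a, Fabp2, Mogat1, Selenbp2, Mup7, Hsd3b5 and Cyp7b1, and not for the other 7 genes.

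Genes that oxidise fatty acids were mostly higher on HFD. Of 32 tested members of the fatty acid oxidation and PPARA target list, 28 rose, 1 fell and 3 did not pass the test, with a median log2 fold change of 0.50 against -0.03 over all genes (all genes: 11.6% higher, 18.3% lower). Without library 13 the counts were 28 and 1. Hadh, the mitochondrial 3-hydroxyacyl-CoA dehydrogenase (chromosome 3, 131233419 to 131272101), was at 147, 135, 131, 160.3 and 144 RPKM on chow, against 206 to 259.8 (median 254) on HFD (0.78 ± 0.08, adjusted p = 2.33e-07), with library 13 the lowest of a tight HFD group. Decr1, which handles unsaturated fatty acids, rose from 46.7 to 71.6 RPKM (0.60 ± 0.07, adjusted p = 5.29e-06). Cpt1a, the entry enzyme of mitochondrial oxidation, rose from 75.2 ± 9.29 to 121 ± 15.7 RPKM (SD, n = 5 and 6; 0.68 ± 0.12, adjusted p = 0.000331). The 4 tested acyl-CoA thioesterases Acot1, Acot2, Acot3 and Acot4, which lie side by side on chromosome 12, all rose, by 0.69 to 2.51 on the log2 scale. The member that fell was Cyp4a12a (-1.82 ± 0.35, adjusted p = 0.000624), which is also a male-typical gene. In the ketone body list 4 of 6 tested members rose and 0 fell, the largest change being Bdh1, 3-hydroxybutyrate dehydrogenase (chromosome 16, 31422297 to 31458901), at 56.2, 48.6, 42.5, 47.5 and 43.8 RPKM on chow, against 82.3 to 105 (median 101) on HFD (1.03 ± 0.10, adjusted p = 3.22e-07).

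Most glycolysis genes were higher on HFD. Of 18 tested genes of glycolysis and glucose uptake, 12 rose, 0 fell and 6 did not pass the test (median log2 fold change 0.47). By the exact rank-sum test, 7 rose. Ldha, lactate dehydrogenase A, was at 314, 284, 291, 312 and 279 RPKM on chow, against 449 to 826 (median 581) on HFD (0.998 ± 0.12, adjusted p = 2.72e-06). The diets did not overlap.

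Of 21 tested fatty acid synthesis genes, 10 rose, 1 fell and 10 did not pass the test (median 0.42), with 5 higher by the exact rank-sum test. The largest rises were in the elongase Elovl5 (from 96.3 ± 19.7 to 299.6 ± 66.6 RPKM, SD, n = 5 and 6; 1.62 ± 0.26, adjusted p = 0.000115) and the delta-6 desaturase Fads2 (chromosome 19, 10062765 to 10101503). Fads2 was at 166, 142, 138, 148 and 142 RPKM on chow, against 348 to 539 (median 495) on HFD (1.61 ± 0.13, adjusted p = 2.67e-08). Fads1, the delta-5 desaturase that lies beside Fads2 on chromosome 19, rose from 125 to 232 RPKM (0.88 ± 0.13, adjusted p = 4.37e-05). These 3 enzymes make long polyunsaturated fatty acids. Srebf1, their transcriptional activator, was at 44.9, 47.6, 33.9, 43.5 and 59.4 RPKM on chow, against 63 to 89.6 (median 81.6) on HFD (0.79 ± 0.14, adjusted p = 0.000331). Of the enzymes that build saturated and monounsaturated fatty acids, picked after their values were seen, Fasn rose (log2 fold change 0.60, adjusted p = 0.0205), while Acaca (0.01, 0.972) and Scd1 (0.15, 0.725) did not pass the test. Mlxipl, which encodes the carbohydrate-responsive factor ChREBP, fell from 108 to 67.7 RPKM (-0.69 ± 0.11, adjusted p = 0.000124).

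Triglyceride synthesis and lipid droplet genes rose more often than they fell. Of 11 tested triglyceride synthesis genes, 6 rose, 0 fell and 5 did not pass the test (median 0.40). Mogat1, a monoacylglycerol acyltransferase known from fatty liver (chromosome 1, 78511060 to 78606964), was at 0.538, 0.502, 0.237, 1.11 and 0.449 RPKM on chow, against 1.36 to 7.61 (median 4.65) on HFD (1.65 ± 0.31, adjusted p = 0.000616), library 13 being the lowest HFD library. Agpat3 rose from 51.9 to 69.1 RPKM (0.40 ± 0.06, adjusted p = 8.44e-05). Of 23 tested lipid droplet and PPARG target genes, 11 rose, 1 fell and 11 did not pass the test (median 0.53), with 15 rising when library 13 was left out. Besides Cidea, the droplet protein Cideb rose from 172 to 254 RPKM (0.56 ± 0.07, adjusted p = 6.97e-06) and the monoacylglycerol lipase Mgll was at 38.4, 41.9, 35.9, 41.3 and 32.2 RPKM on chow, against 56.7 to 123 (median 96.9) on HFD (1.22 ± 0.17, adjusted p = 1.99e-05). Cidec, Plin4 and Plin2, named after their values were seen, had log2 fold changes of 2.29, 1.56 and 0.72 (adjusted p = 0.0173, 0.0151 and 0.00326). Pparg itself was at 5.85, 8.64, 4.68, 6.63 and 3.48 RPKM on chow, against 6.22 to 11.9 (median 9.5) on HFD and missed the threshold (0.60 ± 0.24, adjusted p = 0.057), which it passed under 4 of 20 alternatives, library 13 left out among them. The member that fell was Lpl, lipoprotein lipase (-0.92 ± 0.21, adjusted p = 0.00212).

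Several of these genes, and Cfd, are also high in adipocytes. Of 9 adipocyte markers 5 were tested, of which 2 rose (Cfd and Fabp4) and 1 fell (Adrb3, -0.37 ± 0.13, adjusted p = 0.0322, a call that 11 of 20 alternatives did not keep). The summed level of the list was 1495 to 2149 RPKM in chow libraries and 1709 to 2741 in HFD libraries, nearly all of it Car3, which hepatocytes also express. The defining markers Adipoq and Lep were at 0 in all 6 HFD libraries, and Plin1 was at 0 in 5 of them. In bulk liver RNA, fewer or more cells of a type and less or more RNA per cell cannot be told apart.

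Apolipoprotein genes were mixed. Of 21 tested genes of lipoprotein assembly, 9 rose, 4 fell and 8 did not pass the test (median 0.18), with 2 lower when chow library 4 was left out. Besides Apoa4, the 8 that rose did so by 0.24 (Apoh) to 0.63 (Apoc3) on the log2 scale, while Apom, the sphingosine-1-phosphate carrier of HDL, fell from 239.7 ± 14.7 to 156 ± 21.6 RPKM (SD, n = 5 and 6; -0.63 ± 0.11, adjusted p = 0.000207). Few cholesterol synthesis genes passed the test: of 25 tested, 2 rose, 1 fell and 22 did not pass the test (median -0.11), and 4 rose without chow library 1. Tm7sf2, a sterol reductase, was at 135, 77.7, 76.5, 73.7 and 78.5 RPKM on chow, against 38.6 to 72.5 (median 51.5) on HFD (-0.67 ± 0.20, adjusted p = 0.0136). The Tm7sf2 groups did not overlap, but chow library 1 stood far above the others and the call was lost without it.

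Bile acid genes fell more often than they rose, as did all tested genes (11.6% higher, 18.3% lower). Of 27 tested, 2 rose, 8 fell and 17 did not pass the test (median -0.15, against -0.03 over all tested genes). Cyp7b1, the oxysterol 7-alpha-hydroxylase of the alternative pathway (chromosome 3, 18071944 to 18243890), was at 206, 201, 203, 178 and 171 RPKM on chow, against 28.7 to 75.3 (median 35.5) on HFD (-2.23 ± 0.31, adjusted p = 2.74e-05). Library 13 was the HFD library closest to chow. Abcb11, the bile salt export pump (chromosome 2, 69238282 to 69342616), was at 156, 157, 176, 179 and 187 RPKM on chow, against 65.9 to 125 (median 88.6) on HFD (-0.93 ± 0.12, adjusted p = 1.36e-05). Cyp7a1, the rate-limiting enzyme of the classical pathway, was at 13.4, 22.1, 58.5, 44.9 and 62.8 RPKM on chow, against 13 to 26.4 (median 18.6) on HFD and did not pass the test (-0.90 ± 0.46, adjusted p = 0.145). Its chow libraries ran from inside to far above the HFD range. Hsd17b4, a peroxisomal enzyme shared with fatty acid oxidation, was among the 2 that rose (0.29 ± 0.08, adjusted p = 0.00685).

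Counting both directions together, gluconeogenesis and amino acid genes were called at a share near that of all tested genes (29.9%). Of 12 tested gluconeogenesis genes, 4 rose, 0 fell and 8 did not pass the test, with 2 higher by the exact rank-sum test. The called members thus all rose (all tested genes: 11.6% higher, 18.3% lower), and the median was 0.21 against -0.03 over all tested genes. Pcx, pyruvate carboxylase, rose from 108 to 174 RPKM (0.66 ± 0.10, adjusted p = 3.9e-05), and Fbp1, fructose-1,6-bisphosphatase, from 509 to 766 RPKM (0.58 ± 0.09, adjusted p = 0.000126). Pck1 and G6pc, which encode the first and last steps specific to glucose output, did not pass the test. Pck1 went from 621 ± 226 to 517 ± 82.1 RPKM (SD, n = 5 and 6; -0.21 ± 0.36, adjusted p = 0.698) and G6pc from 157 ± 27.9 to 110.1 ± 24.8 RPKM (SD, n = 5 and 6; -0.53 ± 0.33, adjusted p = 0.24). Fitted on the 11 libraries alone, G6pc passed (adjusted p = 0.0269). Gcgr, the glucagon receptor (chromosome 11, 120529185 to 120538989), went from 107 ± 6.11 to 117 ± 4.36 RPKM (SD, n = 5 and 6; 0.13 ± 0.05, adjusted p = 0.0472), a call that 12 of 20 alternatives did not keep.

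Of 48 tested genes of amino acid catabolism and urea synthesis, 8 rose, 9 fell and 31 did not pass the test (median -0.04). Csad, which makes hypotaurine for taurine synthesis (chromosome 15, 102176997 to 102205052), was at 203, 203, 194, 178 and 117 RPKM on chow, against 17.1 to 52.8 (median 39.8) on HFD (-2.31 ± 0.25, adjusted p = 7.53e-07). The aminotransferases ALT and AST, read in serum as signs of liver injury, are encoded by 4 genes. Got2, the mitochondrial aspartate aminotransferase (chromosome 8, 95864133 to 95888401), was at 210.5, 212, 183, 212 and 205 RPKM on chow, against 254 to 290.5 (median 284) on HFD (0.45 ± 0.05, adjusted p = 3.04e-06). Got1, the cytosolic form (chromosome 19, 43499752 to 43524605), was at 69.4, 55.8, 95.7, 72.6 and 92.2 RPKM on chow, against 57.7 to 110.2 (median 93.8) on HFD, the groups overlapping (0.19 ± 0.17, adjusted p = 0.432). Gpt2, the mitochondrial alanine aminotransferase (chromosome 8, 85492576 to 85528902), was at 65.7, 76.2, 81.6, 76.6 and 126 RPKM on chow, against 79.2 to 149 (median 126) on HFD (0.55 ± 0.16, adjusted p = 0.0126). Gpt, the cytosolic form (chromosome 15, 76696726 to 76699675), was at 135, 135, 119, 152 and 189 RPKM on chow, against 113 to 174 (median 143) on HFD, with full overlap (-0.02 ± 0.11, adjusted p = 0.91). The 2 mitochondrial enzymes thus rose, Gpt2 with chow library 5 inside the HFD range, and the 2 cytosolic ones did not pass the test. Whether the forms differed was not tested.

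**Figure D3:**
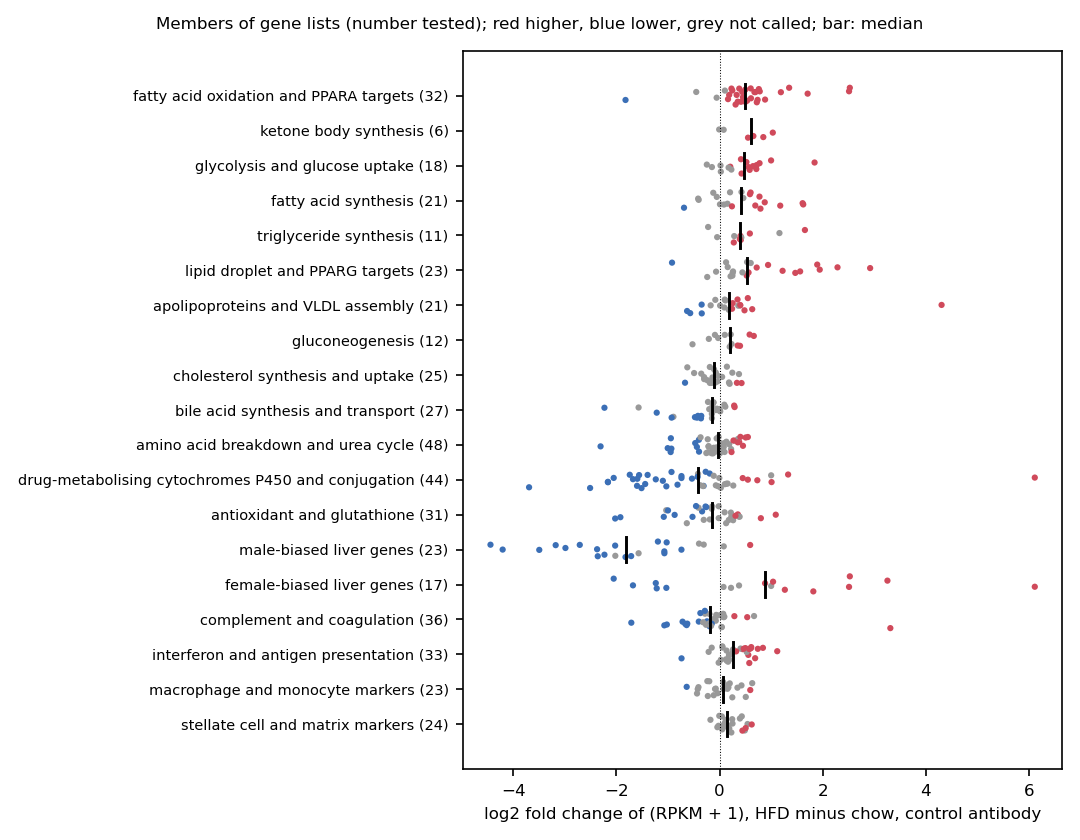
Each point is a tested member of a gene list, placed by its log2 fold change of RPKM + 1 (HFD minus chow, control antibody) on the x axis; lists are rows with the number tested in parentheses, red points rose, blue points fell, grey points were not called, and black bars are medians. The medians run from -1.82 for male-biased liver genes to 0.88 for female-biased ones (17 of 23 listed genes passed the filter), and lie at 0.50 for fatty acid oxidation and -0.42 for P450 and conjugation.

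Drug-metabolising enzymes fell widely. Of 44 tested genes for cytochromes P450 and conjugation, 6 rose, 25 fell and 13 did not pass the test (median -0.42). Genes of these families resemble each other closely and the table shows that reads were shared between copies, so levels of single members are uncertain, and family sums were added. The families were chosen after the values were seen, so their sums are given without a test. The 9 Cyp3a genes fell without exception, and their sum went from 4279.9 ± 842 to 488 ± 32.9 RPKM (SD, n = 5 and 6, as for the sums that follow). Most of the chow sum was Cyp3a11 (mean 3706 RPKM), so the sum largely repeats that gene. Cyp3a13 fell by only -0.27 ± 0.09 (adjusted p = 0.0258), its groups overlapping. Cyp3a57, Cyp3a16, Cyp3a41a, Cyp3a41b and Cyp3a44 had chow means of only 0.449 to 4 RPKM. The sum ranged from 451 to 537 RPKM over the HFD libraries, library 13 included. Cyp3a44 and Cyp3a16, female-typical members of the cluster, fell from 4 to 0.193 RPKM (-2.05 ± 0.12, adjusted p = 9.14e-11) and from 3.44 to 0.362 RPKM (-1.68 ± 0.13, adjusted p = 6.55e-09).

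In the Cyp2b cluster Cyp2b10, a classical target of the receptor CAR, was at 4.3, 3.69, 4.11, 6.99 and 11.3 RPKM on chow, against 0.121 to 1.35 (median 0.323) on HFD (-2.17 ± 0.47, adjusted p = 0.00169), the opposite direction to Cyp2b9. Cyp2b13, between them on the chromosome, was listed at 0 in all 5 chow libraries and at 0.337 to 2.73 (median 0.873) RPKM on HFD (adjusted p = 0.181). The Cyp2c family divided: of 13 tested members 8 fell and 2 rose (Cyp2c38, 1.01 ± 0.27, adjusted p = 0.00764; Cyp2c39, 0.73 ± 0.20, adjusted p = 0.00999), and the sum went from 2832 ± 162 to 1352 ± 298 RPKM. The Cyp4a family split by type. Cyp4a14 and Cyp4a10 rose (log2 fold changes 2.53 and 0.88), Cyp4a12a and Cyp4a12b fell (-1.82 and -3.50), and the sum overlapped between diets (433 ± 115 to 598 ± 49.2 RPKM).

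All 7 tested Ugt2b genes, glucuronosyltransferases, fell, their sum going from 1262 ± 77.4 to 724 ± 52.6 RPKM. Ugt2b38 fell from 11.2 to 1.35 RPKM (-2.36 ± 0.17, adjusted p = 3.86e-09). Among the Ces2 carboxylesterases Ces2a fell from 265 to 46.7 RPKM (-2.51 ± 0.17, adjusted p = 1.01e-09) while Ces2e rose from 75.1 to 112 RPKM (0.59 ± 0.10, adjusted p = 0.00024). Of 31 tested antioxidant and glutathione genes, 4 rose, 10 fell and 17 did not pass the test, with 8 higher without library 13, 1 without chow library 3 or HFD library 12, and 2 without HFD library 14 or 17. Gstp1, a glutathione transferase that is far higher in male than female mouse liver (chromosome 19, 4035411 to 4037912), was at 2381, 3317, 2296, 2674 and 3305 RPKM on chow, against 431 to 817 (median 716) on HFD (-2.03 ± 0.20, adjusted p = 3.86e-07), whereas Gstm2 rose from 49 to 106 RPKM (1.09 ± 0.15, adjusted p = 1.95e-05). Cyp1a2, a pericentral P450 and target of the aryl hydrocarbon receptor, fell from 329.5 ± 30.2 to 126 ± 41.6 RPKM (SD, n = 5 and 6; -1.44 ± 0.26, adjusted p = 0.000371).

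**Figure D4:**
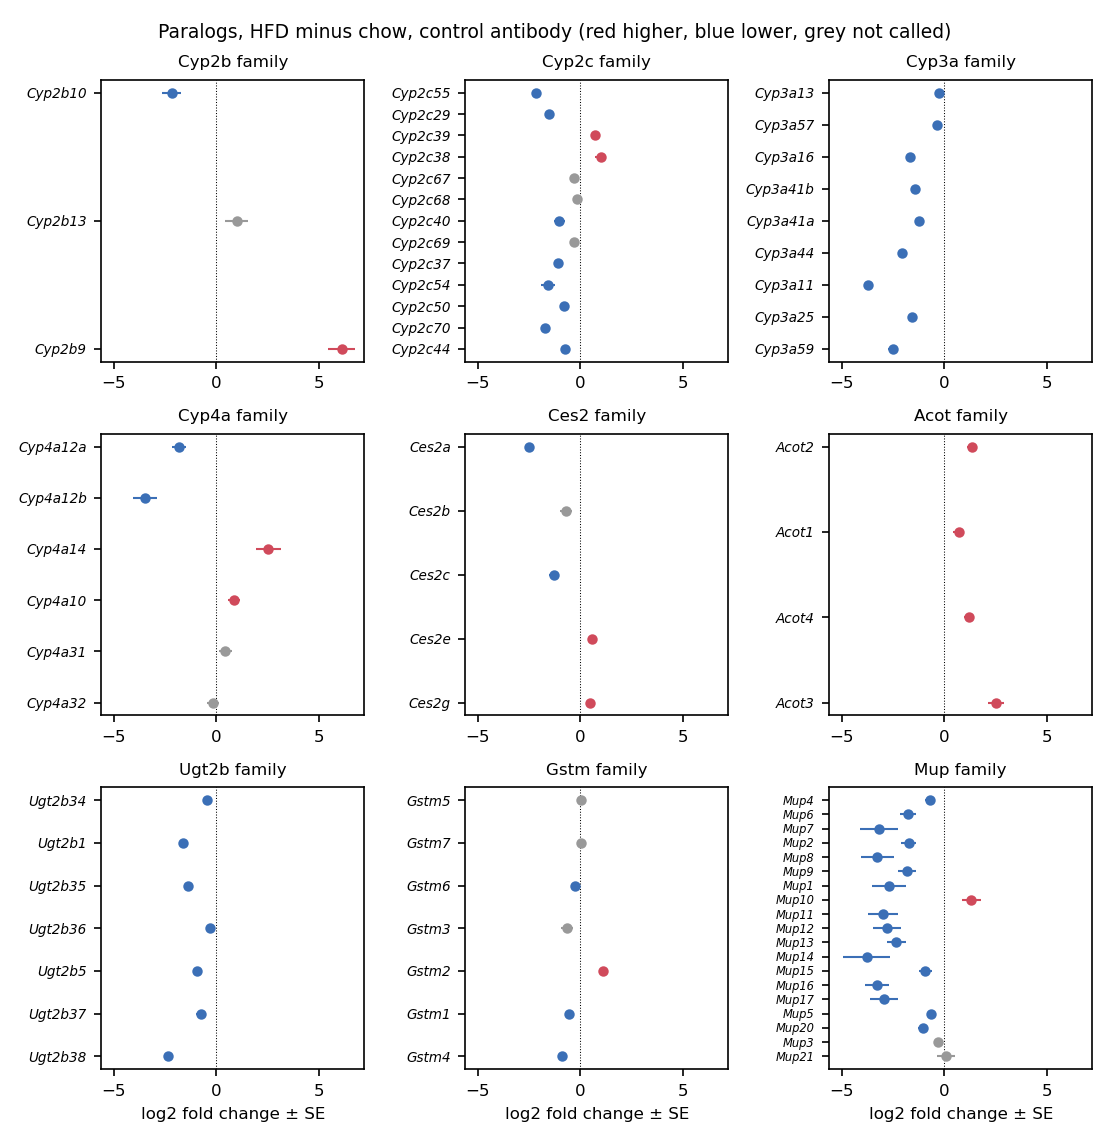
Each panel is 1 gene family; points are the log2 fold changes of RPKM + 1 (HFD minus chow, control antibody, x axis) of its tested members with SE bars, listed in chromosomal order, red for higher, blue for lower and grey for not called. All 9 Cyp3a and all 7 Ugt2b members lie left of 0, the 4 Acot members lie right of it, and the Cyp2b, Cyp4a, Cyp2c and Ces2 panels hold members on both sides.

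Male-typical liver genes fell. Of 23 tested male-biased genes, 1 rose, 17 fell and 5 did not pass the test, with a median log2 fold change of -1.82. The 1 that rose was Ces2e. The Mup family, summed over its genes, went from 30001 ± 5036 to 12924 ± 4208 RPKM (SD, n = 5 and 6). By library the sum was 23224, 32659.7, 26973, 30952 and 36195 RPKM on chow, against 8411 to 18745 on HFD, library 13 being the highest HFD library and still below chow. Of 19 tested Mup genes 16 fell. Mup7 was at 4702, 5181, 6135, 5629 and 8152 RPKM on chow, against 112 to 2789 (median 544) on HFD (-3.18 ± 0.93, adjusted p = 0.0132). Mup3 and Mup21 did not pass the test (log2 fold changes -0.31 and 0.08), and Mup10 rose from 180.1 to 424 RPKM (1.32 ± 0.45, adjusted p = 0.0314).

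Female-typical genes were divided. Of 23 listed female-biased genes 17 passed the filter, of which 8 rose, 5 fell and 4 did not pass the test (median 0.88). Those that rose included Cyp2b9, Cyp17a1, Acot3 and Cyp4a14, and those that fell included Cyp3a44, Cyp3a16 and Cyp3a41a, so the listed values moved in both directions. Cyp2b9 reached 0.5 RPKM only in HFD libraries. A gene of this kind is tested only because it is high on HFD, which favours rises in the count and the median. Levels of single Cyp3a members are uncertain, because reads were shared between copies. Cyp3a44 and Cyp3a16 had chow means of 4 and 3.44 RPKM, beside 2989 to 4577 RPKM for Cyp3a11, which also fell. Whether shared reads gave the falls of Cyp3a44, Cyp3a16 and Cyp3a41a was not tested. Of 17 tested genes of the growth hormone and IGF axis, 1 rose, 6 fell and 10 did not pass the test (median -0.14). Egfr, the receptor for epidermal growth factor (chromosome 11, 16752203 to 16913907), was at 129.8, 127, 132, 142 and 104 RPKM on chow, against 21 to 43.8 (median 31.3) on HFD (-1.97 ± 0.32, adjusted p = 0.000126). Igfbp2, an IGF-binding protein (chromosome 1, 72824480 to 72852474), was at 382, 241, 285, 313 and 216 RPKM on chow, against 33.1 to 164 (median 83.6) on HFD (-1.81 ± 0.29, adjusted p = 0.000118). Ghr, Igf1 and Stat5a, looked up after the lists were counted, had log2 fold changes of 0.01, -0.12 and -0.03 (adjusted p = 0.966, 0.289 and 0.803), while the growth hormone target Socs2 had -1.35 (0.0256).

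Secreted factors and inflammatory genes changed in part (all tested genes: 11.6% higher, 18.3% lower, 29.9% called). Of 21 tested hepatokine genes, 7 rose, 2 fell and 12 did not pass the test. Fgf21, a fasting and stress hormone (chromosome 7, 45613890 to 45615490), was at 3.54, 0.71, 0.378, 0.64 and 0.0635 RPKM on chow, against 2.88 to 8.9 (median 6.75) on HFD (1.99 ± 0.35, adjusted p = 0.000331), with chow library 1 inside the HFD range. Lect2, a secreted chemotactic factor linked to obesity, was at 80.0, 85.5, 64.2, 65.5 and 73.1 RPKM on chow, against 139.7 to 202 (median 177) on HFD (1.21 ± 0.11, adjusted p = 5.99e-08). Insulin signalling genes were called less often than all tested genes: of 22 tested, 2 rose, 2 fell and 18 did not pass the test. Irs2, an insulin receptor substrate, had -0.62 ± 0.21, adjusted p = 0.0279 and Ppp1r3b, a glycogen-targeting phosphatase subunit, 0.62 ± 0.22, adjusted p = 0.0365. Of 23 tested acute phase genes, 6 rose, 4 fell and 13 did not pass the test (median 0.23), with 3 higher by the exact rank-sum test. The share that fell was near that of all tested genes. Lcn2, lipocalin-2, was at 1.58, 2.84, 53.1, 4.26 and 10.5 RPKM on chow, against 42.4 to 848 (median 76) on HFD (4.02 ± 0.75, adjusted p = 0.00053), where HFD libraries 14 and 17 were highest and chow library 3 overlapped the HFD group. Serpina3k fell from 5189 to 2949 RPKM (-0.83 ± 0.18, adjusted p = 0.00174). Summed neutrophil markers were 2 to 4.91 RPKM in chow libraries and 2.2 to 8.41 in HFD libraries, and their part in the acute phase values was not tested.

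Of 36 tested complement and coagulation genes, 3 rose, 13 fell and 20 did not pass the test (median -0.18), and 8 fell after median-ratio scaling. C8b, a chain of the membrane attack complex (chromosome 4, 104766317 to 104804548), dropped from 159 ± 13.2 to 48.3 ± 9.5 RPKM (SD, n = 5 and 6; -1.71 ± 0.29, adjusted p = 0.000196). Interferon-response and antigen-presentation genes leaned upwards: of 33 tested, 14 rose, 1 fell and 18 did not pass the test (median 0.26), with 14 higher without library 13 and 5 by the exact rank-sum test. Isg15, a ubiquitin-like protein induced by interferon (chromosome 4, 156199424 to 156200818), was at 5.86, 6.76, 4.07, 9.54 and 6.92 RPKM on chow, against 9.89 to 21.4 (median 15.9) on HFD (1.12 ± 0.16, adjusted p = 4.77e-05). The GTPase Ifi47, an interferon-gamma target, fell from 13.3 to 7.51 RPKM (-0.74 ± 0.14, adjusted p = 0.00065).

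Few markers of other liver cells passed the test. Of 23 tested macrophage and monocyte markers, 1 rose, 1 fell and 21 did not pass the test, the summed level being 126 to 222 RPKM in chow libraries and 131 to 258 in HFD libraries. Without library 13, 3 rose; without chow library 1, 3 fell; without chow library 2, 5 fell. Trem2, a marker of lipid-associated macrophages, was at 0.0991, 0.0617, 0.131, 0.278 and 0.331 RPKM on chow, against 0.18 to 2.03 (median 0.791) on HFD (0.59 ± 0.21, adjusted p = 0.0383), the diets overlapping and 9 of 20 alternatives not keeping the call. Trem2, the only marker of this list that rose, reached 0.5 RPKM only in HFD libraries, and so was tested only through the diet where it was higher. Cd9 fell (-0.64 ± 0.21, adjusted p = 0.0251). Of 24 tested stellate cell and matrix markers, 3 rose, 0 fell and 21 did not pass the test, Sparc among those that rose (0.62 ± 0.21, adjusted p = 0.0281), and the summed level was 119.9 to 129 RPKM in chow libraries and 129.9 to 227 in HFD libraries. With any 1 of chow libraries 3 and 5 or HFD libraries 14 and 17 left out, 0 stellate markers were called, and 1 without chow library 4. Of 19 tested sinusoidal endothelial markers 1 rose (Lyve1, 0.58 ± 0.20, adjusted p = 0.0323), and 4 fell without chow library 2. B cell, neutrophil and pancreas markers gave no call, in 4, 4 and 2 tested genes. Of 6 tested T and NK cell markers Zap70 rose from 5.31 to 10.7 RPKM (0.89 ± 0.15, adjusted p = 0.000197) and Cd4 fell (-0.36 ± 0.13, adjusted p = 0.044). The T cell genes Cd3d, Cd3e and Cd3g had chow means of 0.348, 0.198 and 0.433 RPKM and HFD means of 0.313, 0.267 and 0.422. Of these only Cd3g passed the filter, and it was not called. Krt23 rose among 5 cholangiocyte markers (1.20 ± 0.17, adjusted p = 3.58e-05). Globin and other red blood cell genes summed to 524 to 1157 RPKM in chow libraries and 1297 to 2557 in HFD libraries, 4 of 8 tested members rising, Hbb-bt from 65.9 to 145 RPKM (1.13 ± 0.25, adjusted p = 0.00189). Of 10 hepatocyte markers Fabp1 and Ttr rose and Cyp3a11 and Hnf4a fell, with Fabp1 from 5736 to 9407 RPKM (0.74 ± 0.13, adjusted p = 0.000331). Mitochondrially encoded transcripts were listed as a check on RNA handling. Of these, 10 of 13 rose, led by CYTB from 8102 to 12121 RPKM (0.59 ± 0.12, adjusted p = 0.00117), and the cause of the rise was not tested. The count was 3 by the exact rank-sum test and 5 without any 1 of chow libraries 3, 4 and 5 or HFD libraries 12, 14 and 15. Of 14 immediate early and heat shock genes 0 were called, and 3 fell without library 13. The part of these values in the results above was not tested.

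The diet comparison was repeated in the 12 libraries of the GCGR antibody, which are not among the 11 used above. Both comparisons took the spread of each gene from the same fit, so their calls, and the overlaps that follow, were not fully independent. There 1579 genes were higher (13.2%) and 1983 lower (16.6%) on HFD. Of the genes higher under the control antibody 792 were also higher under the GCGR antibody (57.0%, and 50.2% of the GCGR antibody list), and of those lower 1221 were also lower (55.9% and 61.6%). Only 5 genes were called in opposite directions (Fam25c, Enpp5, Pnpla7, 8430419L09Rik and Ces1g), and 163 of the 3573 called genes had the opposite sign there. Cyp2b9 rose from 0.0657 to 109 RPKM (a log2 fold change of 5.96 ± 0.61, with adjusted p = 4.16e-07) and Mfsd2a from 0.34 to 28.3 RPKM (3.77 ± 0.46, 3.52e-06). Selenbp2 fell from 900.3 to 260.1 RPKM (-2.72 ± 0.55, 0.000849).

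A test of the difference between the 2 diet effects called 24 genes (0.201%), 14 of them among those called under the control antibody, and 1177 at an unadjusted p under 0.05. With 1 control antibody library left out it called 5 to 35 genes, and no GCGR antibody library was left out. Cyp3a11 fell less under the GCGR antibody, from 3493 to 905 RPKM (difference of log2 fold changes 1.73 ± 0.20, adjusted p = 0.00021), and so did Cyp3a44 (0.84 ± 0.17, 0.0381). Cyp17a1 rose less, from 0.444 to 1.84 RPKM (-2.35 ± 0.36, 0.0054). Cidea went from 2.15 to 3.36 RPKM under the GCGR antibody, but its difference did not pass the test (-2.44 ± 0.87, 0.329). Nor did that of Cfd (-2.15 ± 0.78, 0.346). Of the interferon and antigen presentation list, 28 members rose and 0 fell under the GCGR antibody, against 14 and 1 under the control antibody; the difference of the counts was not tested.

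**Figure D5:**
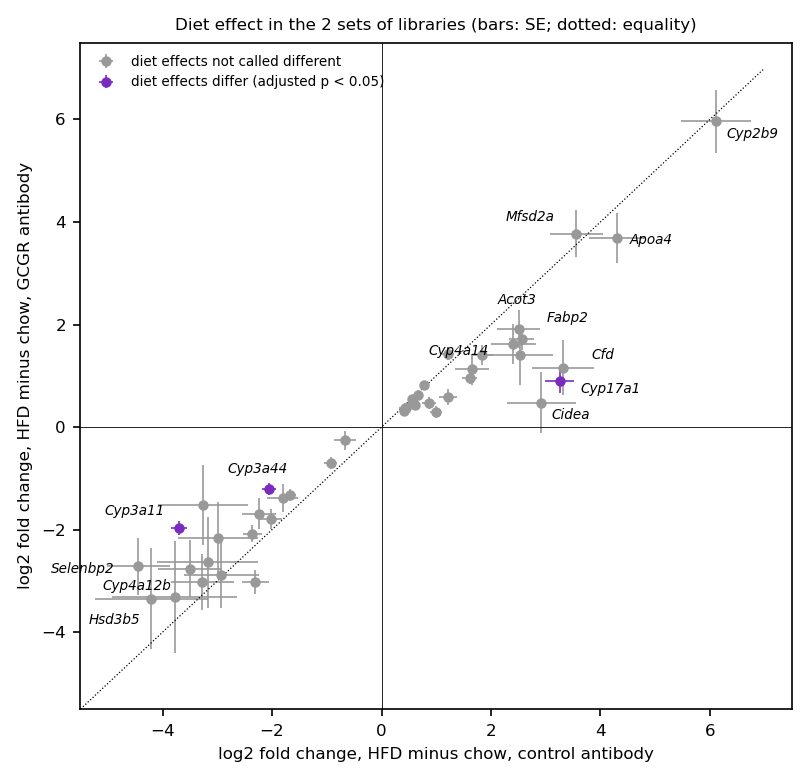
Each point is 1 named gene (the 20 largest changes and the best-supported members of 13 lists); the x axis is its log2 fold change HFD minus chow under the control antibody, the y axis that under the GCGR antibody, bars are SE and the dotted line marks equal effects. All points lie in the lower left or upper right part of the plot; Cyp3a11, Cyp3a44 and Cyp17a1 (purple) are those whose diet effects differed at an adjusted p under 0.05.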

How the data were processed

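Liver RNA of 23 libraries was sequenced. Per the labels' protocols, libraries were strand-specific (KAPA mRNA-Seq kit), PCR-amplified and sequenced on a HiSeq 2500 as single reads. The submitters' processing notes name bcl2fastq 2.17, FastQC and GRCm38; the aligner, the read counter, the annotation and whether counting used strand were not given in the sources used here. What the authors deposited is 1 table of RPKM, with a gene ID, symbol and 23 library columns; no other per-sample column was left out (0). Among its values 951 lie above 0 but under 1e-06 and 150 genes equal another gene in every library, so reads were shared between copies, and Mup, Hamp, Selenbp, Cyp2b, Cyp2c, Cyp3a, Cyp4a, Ugt2b, Ces2, Gst, Acot and globin members (Hbb-bt shares its values with another gene) are uncertain.

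For testing, limma 3.58.1 (R 4.3.3) was fitted to log2(RPKM + 1): 4 group means over all 23 libraries, which share 1 estimate of the spread, moderated statistics with a mean-variance trend, two-sided, Benjamini-Hochberg over 11939 genes, threshold 0.05. The script was checked on simulated data. Positions come from a RefSeq table of GRCm38.p6 (24375 of 24475 gene IDs found). The members and the 42 gene lists (907 entries) were chosen with earlier results of these data known, and lists are described by counts and medians without a set test. Genes named: the 10 largest increases and decreases among called genes with a mean of at least 1 RPKM and no overlap, predicted and microRNA genes passed over; from each of 13 lists, the 2 members of smallest adjusted p; 12 fixed genes; and the largest called change in each direction of each list. Sequences were aligned with Biopython 1.88. Alternatives were another pseudocount, filter, scaling, model or test, and each of the 11 libraries left out; none was added later. No batch is given in the labels.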

Additional observations from a re-analysis of the deposited data

Results flagged for a closer look

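Among the named genes, 194 groups of 5 or 6 libraries were examined for a library far from the others of its group, and 14 held one; chance alone would give about 1 in 20 groups. The value given is the gap to the nearest library as a share of the group's range, both on the log2(RPKM + 1) scale. Gaps between the RPKM printed here give other shares. HFD library 13 was the one set apart in 7 cases: it was the highest for Adrb3 (0.715) and C8b (0.674), both lower on HFD, and the lowest for Ccnd1 (0.768), Got2 (0.761), Gpt2 (0.66), Hadh (0.83) and Hsd17b4 (0.717), all higher on HFD. In each of these it was the HFD library nearest to the chow mean. The other HFD cases were Asns, where library 17 was highest (0.888, 2.84 RPKM), and Gstp1, where library 16 was lowest (0.689, 431 RPKM). On chow, library 1 was highest for Hfe2 (0.765), Lpl (0.715) and Tm7sf2 (0.897, 135 RPKM), library 5 lowest for Csad (0.757, 117 RPKM) and library 3 lowest for Got2 (0.773). Their causes were not tested.

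The diet effect differed between the antibodies, by the interaction term, for 3 named genes. GCGR antibody minus control antibody, the difference of log2 fold changes was -2.35 for Cyp17a1, 1.73 for Cyp3a11 and 0.84 for Cyp3a44. For Cyp17a1 the chow mean was also lower under the GCGR antibody, 0.444 against 1.5 RPKM.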

How the results depend on the processing

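No paired analysis was possible because the groups share no replicate number. Named genes other than the fixed ones were picked by their call or small adjusted p here, which favours keeping the call. Of 97 named genes 91 were called, and 72 of these kept their call and direction under all 20 alternatives. The other 19 lost it under at least 1: Adrb3, Arntl, Asns, Ccnd1, Cd4, Cd9, Dbp, Gadd45b, Gcgr, Gpt2, Hamp, Irs2, Lcn2, Lyve1, Pdia6, Ppp1r3b, Sparc, Tm7sf2 and Trem2, 16 of them under the exact rank-sum test; the cause was not tested. Gpt, not called (log2 fold change -0.02), changed sign to 0.0258 after median-ratio scaling, 0.0774 without chow library 5 and 0.0469 without HFD library 14; with 1 library left out it ran from -0.0875 to 0.0774. Pparg gained a call under 4 (median-ratio scaling, the 11 libraries alone, without chow library 2, without HFD library 13; lowest adjusted p = 0.0262) and G6pc under 1 (the 11 libraries alone, 0.0269). The counts of 1390 higher and 2183 lower genes stayed within 1.5 times: upper-quartile scaling gave 1357 and 2455, the exact rank-sum test 931 and 1686, the 11 libraries alone 1431 and 2330, no filter 1225 and 1993, and leaving out 1 library 1046 to 1672 and 1621 to 2316. Under the GCGR antibody the counts were 1514 to 1625 and 1914 to 2032 with 1 control antibody library left out. No GCGR antibody library was left out, so these counts could move only through the shared spread. The count of genes with differing diet effects depended on the setting: 24 as reported, 8 without a filter and 15 after upper-quartile scaling. It was 5 to 35 with 1 control antibody library left out (5 to 12 without any 1 of chow libraries 1, 3, 4 and 5 or HFD libraries 12, 14, 15 and 17). List counts that moved by over 1.5 times and are not given elsewhere were: without a filter, antioxidant 2, clock 4, cell cycle 3, stellate 0 and mitochondrially encoded 4 higher, and iron 1 lower; by the rank-sum test, antioxidant 1 and cell cycle 1 higher, and iron 1 lower; after median-ratio scaling, macrophage 3 and stellate 5 higher; after upper-quartile scaling, macrophage 3 lower and mitochondrially encoded 5 higher; with pseudocount 0.1, macrophage 3 higher. Depth limits low genes: with unknown read numbers, a value of 0 RPKM gives no bound on the level.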

Other observations

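The number of clock genes called depended on the test and on single libraries. Of 20 tested clock and clock-output genes, 7 rose, 3 fell and 10 did not pass the test (all tested genes: 11.6% higher, 18.3% lower). By the exact rank-sum test 1 rose and 1 fell, against 931 and 1686 of all 11939 tested genes. Without any 1 of chow libraries 1 and 2 or HFD libraries 16 and 17, 3 or 4 rose. Dbp, an output factor driven by the clock (chromosome 7, 45705100 to 45710203), was at 2, 6.29, 15, 16.7 and 35.8 RPKM on chow, against 19.6 to 66.5 (median 53.1) on HFD (1.85 ± 0.61, adjusted p = 0.0264). Arntl, which encodes the clock activator BMAL1 (chromosome 7, 113178471 to 113314126), was at 9.12, 5.14, 4.9, 4.19 and 2.53 RPKM on chow, against 0.631 to 3.79 (median 1.43) on HFD (-1.12 ± 0.32, adjusted p = 0.0114). Chow library 1 had the lowest Dbp and the highest Arntl and chow library 5 the reverse, and on HFD libraries 12 and 13 had the lowest Dbp and the highest Arntl, so the libraries of each group differed among themselves as well. The other called members, looked up after they were counted, were Per1, Per2, Per3, Tef, Usp2 and Ciart, with log2 fold changes of 0.73 to 1.53, and Clock and Npas2 (-0.69 and -0.44).

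Zonation genes were called about as often as all tested genes (29.9%). Of 20 tested periportal genes 2 rose and 6 fell, Cdh1, E-cadherin, falling from 12 to 2.78 RPKM (-1.92 ± 0.28, adjusted p = 3.72e-05). Of 20 tested pericentral genes 5 rose and 2 fell, the amino acid transporter Slc1a4 rising from 0.989 to 3.96 RPKM (1.25 ± 0.17, adjusted p = 2.71e-05). Of 35 tested nuclear genes for respiratory chain subunits 11 rose and 0 fell (median 0.14), Ndufa2 by 0.53 (adjusted p = 0.00612). Of 25 tested cell cycle genes 7 rose and 2 fell, with 12 higher without HFD library 13 and 3 or 4 without any 1 of chow libraries 1, 3 and 5 or HFD libraries 15, 16 and 17; Ccnd1, cyclin D1, had 0.63 ± 0.22, adjusted p = 0.0343 and Gadd45b -1.25 ± 0.48, adjusted p = 0.0498. Few endoplasmic reticulum stress genes passed the test (2 higher and 1 lower of 21, and 4 higher in a fit of the 11 libraries alone), with Ern1, the stress sensor IRE1, at -0.82 ± 0.15, adjusted p = 0.000493 and Pdia6 at 0.37 ± 0.11, adjusted p = 0.017. Of 17 tested ATF4 target genes 5 rose, Fgf21 with the largest change, and 1 fell, Asns, asparagine synthetase, at 3.08, 1.92, 6.31, 1.38 and 2.44 RPKM on chow, against 0.178 to 2.84 (median 0.285) on HFD (-1.30 ± 0.30, adjusted p = 0.00254), where library 17 lay inside the chow range. Hamp, the gene for hepcidin, which controls iron uptake, was at 214, 485, 54.7, 129.5 and 181 RPKM on chow, against 2.92 to 253 (median 36) on HFD (-2.21 ± 0.76, adjusted p = 0.032), the groups overlapping, among 17 iron genes of which 3 rose and 3 fell; 1 fell without any 1 of chow library 5 and HFD libraries 13, 14 and 15. Hfe2, hemojuvelin, was among those that rose (0.41 ± 0.08, adjusted p = 0.000537).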
